A study of Homo sapiens with 4 samples.

Results

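The genes described here are the oncogenes and cell cycle genes by which multiple myelomas are commonly classed. They are MYC and its dimer partner MAX, the D cyclins CCND1, CCND2 and CCND3, the immunoglobulin translocation genes NSD2, FGFR3 and MAF, and CKS1B of the long arm of chromosome 1. They were chosen by name, through the Ensembl gene ID of each row. Of the 9 genes, 8 had a row among the 15201 genes of the deposited expression table, and all 8 passed the filter on low values, a 4-library mean of 1 FPKM or more, which 13411 genes passed. FGFR3 is not analysed here. ARP-1, the source of the libraries, is a cell line of human multiple myeloma. The first group was the wild-type line (WT, 2 libraries) and the second was the line made resistant to carfilzomib (CfzR, 2 libraries), an inhibitor that binds the proteasome covalently. The labels give no dose, no time in drug, no other agent and no word on whether the resistant cells are 1 clone or a pool. The comparison asks whether the oncogene levels of the line differed between wild-type and resistant cells.

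MYC is a transcription factor that binds DNA as a dimer with MAX, most tightly at the E-box CACGTG, and drives genes of ribosome making, nucleotide synthesis and growth. Members of the MXD family and MNT also pair with MAX and oppose MYC at the same sites. D cyclins activate the kinases CDK4 and CDK6, which phosphorylate the RB1 protein and let cells enter S phase. Nearly all myelomas express at least 1 D cyclin above the level of normal plasma cells. In some of them a translocation places CCND1 or CCND3 beside an immunoglobulin enhancer. In others MAF or NSD2 is placed there and CCND2 is raised, and not every myeloma has such a translocation.

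Sequences are shown first, to give the sites at which MYC and MAX are known to bind and the start regions of the members that the results turn on. All come from RefSeq (GRCh38.p14), as windows from 250 bases before to 50 bases after a start site, which covered 5 of the 8 members with a row. The E-box CACGTG, which reads the same on both strands, was found in 7.256% of 35116 such windows of 300 bases and in at least 1 window of 8.775% of 27305 gene symbols. In the list of MYC targets of ribosome making and growth it was found for 13 of 24 genes with a window (54.17%), and in the list of MYC network genes for 4 of 10. It was found in none of the windows of the 5 members. A match is a description of letters and does not show that a factor binds there. Stretches around the matches of 3 genes whose values are given below follow, each written 5′ to 3′ on the strand of the gene with the E-box in capitals. They are the kinase gene CDK4, which has 3 matches, and the MYC antagonists MXD4 and MNT.
CDK4, match farthest from the start site: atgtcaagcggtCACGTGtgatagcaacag
CDK4, middle match: atagcaacagatCACGTGgctgccatcgcc
CDK4, match nearest to the start site: atgggtggcggtCACGTGcccagaacgtcc
MXD4 match: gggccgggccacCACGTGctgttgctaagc
MNT match: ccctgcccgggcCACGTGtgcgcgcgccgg

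The CDK4 stretches lie at chr12:57752509-57752538, chr12:57752489-57752518 and chr12:57752394-57752423 on the minus strand. The MXD4 stretch lies at chr4:2262330-2262359 and the MNT stretch at chr17:2401236-2401265, both on the minus strand. The next 4 windows are the start regions of CKS1B and MAF, which were among the highest members, and of NSD2 and CCND3, whose groups did not overlap. Capitals mark the box CCAAT, searched on both strands (ATTGG on the other strand) and found in 34.6% of all windows, and the box TATAAA, also searched on both strands and found in 11.5%. No matches overlapped each other in these windows. The CKS1B window (chr1:154974431-154974730, plus strand) held 5 CCAAT boxes, the MAF window (chr16:79600688-79600987, minus strand) held 2 CCAAT boxes and 1 TATA box, and the NSD2 window (chr4:1871143-1871442, plus strand) held 1 CCAAT box. CCND3 has 3 windows, and the one printed (chr6:41941759-41942058, minus strand) held 1 CCAAT box.
CKS1B: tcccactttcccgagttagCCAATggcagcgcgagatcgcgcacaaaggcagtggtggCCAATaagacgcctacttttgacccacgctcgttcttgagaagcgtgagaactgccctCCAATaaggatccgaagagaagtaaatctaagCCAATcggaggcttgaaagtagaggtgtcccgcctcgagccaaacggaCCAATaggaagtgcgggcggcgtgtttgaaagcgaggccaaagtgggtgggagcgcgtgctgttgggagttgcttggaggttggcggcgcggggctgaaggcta
MAF: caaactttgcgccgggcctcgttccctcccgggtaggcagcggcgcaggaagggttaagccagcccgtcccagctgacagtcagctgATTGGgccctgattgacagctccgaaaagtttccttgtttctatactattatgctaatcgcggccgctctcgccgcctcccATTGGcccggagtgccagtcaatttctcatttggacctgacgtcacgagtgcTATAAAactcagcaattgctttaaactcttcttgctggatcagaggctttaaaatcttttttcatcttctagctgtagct
NSD2: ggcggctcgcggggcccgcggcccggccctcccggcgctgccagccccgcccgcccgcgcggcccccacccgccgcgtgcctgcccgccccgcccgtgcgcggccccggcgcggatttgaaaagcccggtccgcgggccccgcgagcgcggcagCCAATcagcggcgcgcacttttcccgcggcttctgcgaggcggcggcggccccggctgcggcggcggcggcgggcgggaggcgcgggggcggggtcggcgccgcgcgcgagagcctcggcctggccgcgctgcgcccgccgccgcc
CCND3: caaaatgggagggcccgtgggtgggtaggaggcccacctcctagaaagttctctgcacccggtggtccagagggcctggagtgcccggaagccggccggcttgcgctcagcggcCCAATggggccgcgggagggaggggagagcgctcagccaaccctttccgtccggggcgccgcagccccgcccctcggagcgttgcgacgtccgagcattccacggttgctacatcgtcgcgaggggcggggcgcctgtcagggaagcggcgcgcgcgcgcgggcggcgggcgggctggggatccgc

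Values are FPKM, fragments per kilobase of transcript scaled to the library, and depth is unknown. The unit allows for transcript length and library size. It does not by itself make levels comparable between genes or libraries, given the differences of CfzR replicate 1 described below. Differences are log2 fold changes of CfzR minus WT on log2(FPKM + 1), with the standard error (SE) and 95% interval of limma fitted over all 13411 genes. The p-values were adjusted by Benjamini-Hochberg over the same genes, with a threshold of 0.05. Over all genes tested, 47 (0.350%) passed in either direction, 33 (0.246%) higher and 14 (0.104%) lower in CfzR. An unadjusted limma p under 0.05 was found for 1492 genes (11.1%). The groups did not overlap for 44.7% of genes, with 22.1% higher and 22.6% lower in CfzR, and the median log2 fold change was -0.02. All 8 plasma cell markers examined had a row, with summed levels of 5865 to 6653 FPKM over the libraries, of which JCHAIN made up 3493 to 4601. SDC1, PRDM1 and JCHAIN were higher in CfzR without overlap (limma adjusted p = 0.661, 0.653 and 0.830). TNFRSF17 and XBP1 were lower in CfzR without overlap (limma adjusted p = 0.495 and 0.720). IRF4, CD38 and MZB1 overlapped, and none of these markers passed the threshold. Markers of B cells, myeloid cells, fibroblasts and red cells had no row, and of 4 T or NK cell markers only NCAM1 did (7.57 to 11.3 FPKM). A missing row is not a measured 0 and does not show that a gene was silent. The lowest 4-library mean of any row was 0.500 FPKM, and FBL and LDHA of the MYC target list had no row here either. CfzR replicate 1 stood apart from the other libraries. Its sum of FPKM was 673265 against 877849 to 955284, and its difference from CfzR replicate 2 followed transcript length with a Spearman rho of 0.47 across 12896 genes, against 0.15 between the WT libraries. The same pairs gave a rho with GC share of -0.35 and 0.08. Against the WT mean, the rho with length was 0.38 for CfzR replicate 1 and -0.015 for CfzR replicate 2.

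None of the 8 members passed the threshold between WT and CfzR cells. MYC, CKS1B and MAF stood at 85.5 to 327 FPKM in every library, CCND3 was the main D cyclin, and CCND1 was low. The groups overlapped for 5 members and did not overlap for 3, CCND2 and NSD2 being higher and CCND3 lower in CfzR. The share of genes without overlap is 44.7% over all genes, so 3 of 8 is near the background. CCND3 alone had an unadjusted limma p under 0.05, 1 of 8 against 11.1% of all genes. The median log2 fold change of the 8 was -0.03, against -0.02 over all genes tested. The values for MYC, MAX, MAF and CKS1B lay just below 0 and turned positive under quantile normalization. In bulk RNA, fewer cells that express a gene and less RNA per cell cannot be told apart.

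**Figure D1:**
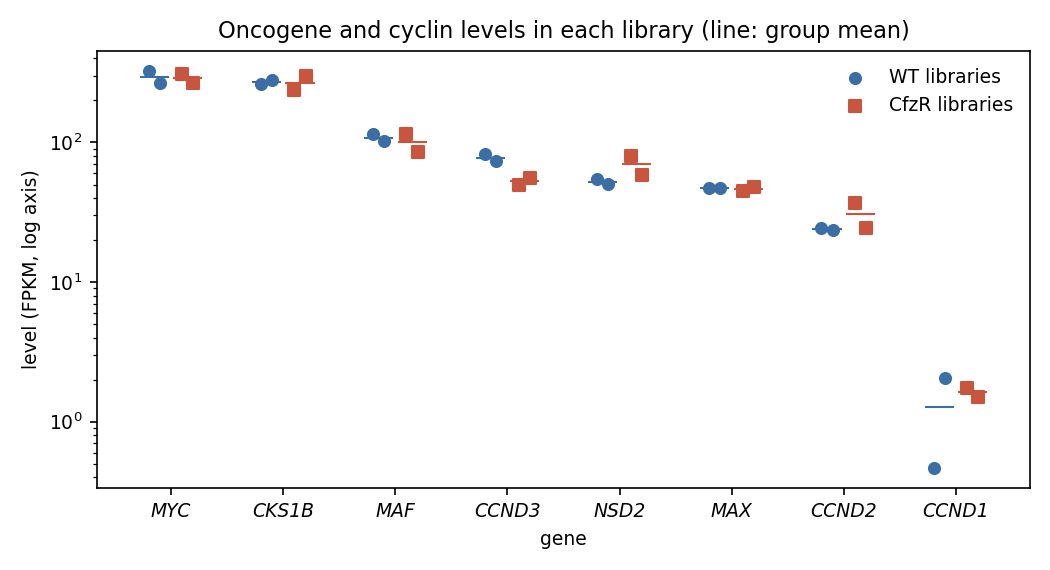
Levels of the 8 members in FPKM (log axis) in each WT library (circles) and CfzR library (squares), with a line at each group's mean, ordered by mean level. MYC and CKS1B lie highest, between 237 and 327 FPKM, CCND1 lies lowest, and the CCND3 squares lie below its circles.

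MYC had the highest mean level of the members, although CKS1B was higher in replicate 2 of both groups. It stood at 327 and 266 FPKM in WT replicates 1 and 2 and at 307 and 268 in CfzR replicates 1 and 2. Each CfzR value lay between the WT values, so the groups overlapped. The log2 fold change was -0.04 (SE 0.25, limma adjusted p = 0.956), with a 95% interval of -0.63 to 0.55. That interval leaves room for a difference of about the size of the CCND3 difference in either direction. In each library MYC was at or above the level of 96.7% of all genes in the table. The gene (ENSG00000136997) lies at chr8:127735434-127741434 on the plus strand of GRCh38, in the GENCODE 29 annotation used for all gene positions here.

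MAX was the most even of the members. Its level was 47.4 and 47.3 FPKM in the WT libraries and 45.2 and 48.2 in the CfzR libraries, a log2 fold change of -0.02 (SE 0.19, limma adjusted p = 0.974). MYC therefore exceeded MAX 6.90- and 5.64-fold in WT and 6.80- and 5.55-fold in CfzR. The ratio varied more between replicates than between groups, being higher in replicate 1 of both.

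Among the relatives and antagonists of MYC, 11 of 14 listed genes were tested and 0 passed the threshold in either direction. Log2 fold changes were positive for 5 and negative for 6, with a median of -0.01 that was 0.0093 under TMM scaling. TRRAP, a scaffold that MYC uses to recruit histone acetyltransferases, was at 33.4 and 29.6 FPKM in the WT libraries and at 49.9 and 42.4 in the CfzR libraries. Both CfzR values lay above both WT values (log2 fold change 0.53, SE 0.20, limma adjusted p = 0.399). MXD4, an antagonist that pairs with MAX, was at 50.5 and 48.8 FPKM in the WT libraries and at 32.8 and 42.1 in the CfzR libraries, without overlap (log2 fold change -0.41, limma adjusted p = 0.509; -0.23 without CfzR replicate 1). MNT, another antagonist, overlapped, at 7.45 and 7.98 FPKM in the WT libraries and at 7.63 and 6.13 in the CfzR libraries (log2 fold change -0.15, and -0.29 without CfzR replicate 1). MLXIP, a glucose-responsive relative that pairs with MLX, differed by -0.15 on the log2 scale.

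The MYC targets of ribosome making and growth had mostly negative values, and none passed the test. Of 28 tested genes, 6 lay above and 22 below 0, and the median log2 fold change was -0.22 against -0.02 over all genes. The groups did not overlap for 2 higher and 12 lower genes, against 22.1% and 22.6% of all genes, and 3 had an unadjusted limma p under 0.05, against 11.1%. In CfzR replicate 1 the list's median difference from the WT mean was -0.29, and in CfzR replicate 2 it was -0.12. Under quantile normalization the median was -0.09. IMPDH2, the rate-limiting enzyme of guanine nucleotide synthesis, stood at 246 and 354 FPKM in the WT libraries and at 130 and 199 in the CfzR libraries. Its CfzR values lay below its WT values, with CfzR replicate 1 lowest (log2 fold change -0.87, SE 0.31, limma adjusted p = 0.369; -0.56 without CfzR replicate 1). RRP12, a ribosome assembly factor, stood at 11.04 and 15.5 FPKM in the WT libraries and at 6.24 and 9.40 in the CfzR libraries (log2 fold change -0.70, and -0.44 without CfzR replicate 1). TFRC, the transferrin receptor, went the other way, with 6.22 and 7.33 FPKM in the WT libraries and 14.1 and 9.23 in the CfzR libraries (log2 fold change 0.68, limma adjusted p = 0.379; 0.40 without CfzR replicate 1). CDK4, whose E-boxes are printed above, overlapped, at 78.0 and 82.6 FPKM in the WT libraries and at 69.0 and 84.7 in the CfzR libraries.

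Genes that control MYC transcription and protein stability were mostly above 0. Of 15 tested, 13 had positive and 2 negative log2 fold changes, 0 passed, and the median was 0.14. The median difference from WT was 0.21 in CfzR replicate 1 and -0.05 in CfzR replicate 2, so the sign of the median turned without CfzR replicate 1. The kinase gene PIM1, whose product phosphorylates MYC, was at 13.8 and 13.6 FPKM in the WT libraries and at 26.0 and 23.5 in the CfzR libraries. Both CfzR libraries lay well above both WT libraries (log2 fold change 0.81, SE 0.19, limma adjusted p = 0.186), and the value was 0.74 without CfzR replicate 1. PIM2, its relative that is high in myeloma, was at 686 and 656 FPKM in the WT libraries and at 870 and 890 in the CfzR libraries (log2 fold change 0.39, SE 0.28, limma adjusted p = 0.610). USP28, a deubiquitinase that spares MYC from destruction, was at 10.7 and 8.62 FPKM in the WT libraries and at 17.7 and 11.8 in the CfzR libraries (log2 fold change 0.55, and 0.27 without CfzR replicate 1). IRF4, the plasma cell factor that sustains MYC in myeloma, overlapped, at 226 and 222 FPKM in the WT libraries and at 284 and 206 in the CfzR libraries.

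**Figure D2:**
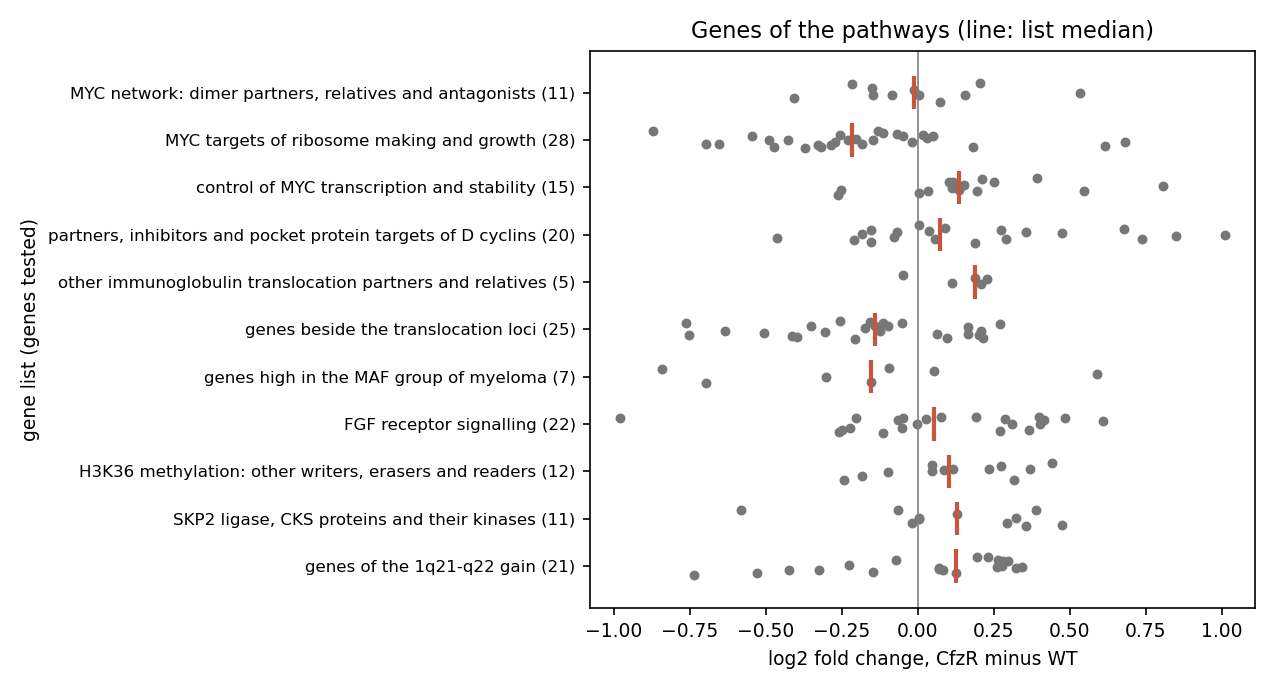
Log2 fold change, CfzR minus WT, of each tested gene in the 11 gene lists (points), with the list's median (vertical line) and the number of genes tested in brackets. No gene shown passed the threshold, the MYC targets have the lowest list median (-0.22), and the most negative single gene is FGFR1 (-0.98).

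CCND3 was the main D cyclin of both groups and the member with the largest difference. It stood at 82.1 and 73.6 FPKM in the WT libraries and at 49.3 and 55.9 in the CfzR libraries. Both CfzR libraries lay below both WT libraries, and the mean in CfzR was 0.675 times that in WT. The log2 fold change was -0.56 (SE 0.20, 95% interval -1.03 to -0.08), with an unadjusted limma p of 0.0272 and an adjusted p of 0.374. The direction was the same in each of the alternative settings, at -0.47 without CfzR replicate 1 and -0.65 without CfzR replicate 2, and at -0.44 once trends with transcript length and GC share were removed. The gene (ENSG00000112576) spans chr6:41934933-42050357 on the minus strand.

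CCND2 had the second highest D cyclin level. It was at 24.5 and 23.6 FPKM in the WT libraries and at 36.6 and 24.5 in the CfzR libraries. Only CfzR replicate 1 was clearly above WT, and CfzR replicate 2 lay just above the higher WT library. The log2 fold change was 0.31 (SE 0.24, 95% interval -0.25 to 0.87, limma adjusted p = 0.635) and was 0.03 without CfzR replicate 1. The longest annotated transcript of CCND2 is 6480 bases long, against 2394 for CCND3. CfzR replicate 1 was the library in which differences followed transcript length. The part of that library in the CCND2 value was measured only by leaving it out and by the length and GC correction, which gave 0.23. In that library MAF (6384 bases) was at 115 FPKM, against 114 and 103 in WT. NSD2 (8568 bases) was at 80.6 there, against 54.6 and 50.1 in WT. Whether length had a part in the CCND2 value was not tested. CCND2 (ENSG00000118971) lies at chr12:4273772-4305350 on the plus strand.

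CCND1 was the lowest member, at 0.467 and 2.07 FPKM in the WT libraries and at 1.74 and 1.51 in the CfzR libraries. The spread between the WT libraries enclosed both CfzR values. Its interval was wide, -0.58 to 1.19 around 0.31 (SE 0.37, limma adjusted p = 0.757). At this low level the value depended on the pseudocount, at 0.64 with 0.1 and 0.092 with 5, and it was -0.22 without WT replicate 1 and 0.84 without WT replicate 2. CCND1 (ENSG00000110092) lies at chr11:69641087-69654474 on the plus strand.

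The make-up of D cyclin RNA can be read within each library, where scaling cancels. A trend with transcript length or GC share does not cancel. CCND2 and CCND3 differ in both, with longest annotated transcripts of 6480 and 2394 bases and 45.5% and 56.2% GC. The shares given here were not corrected for such trends. CCND3 made up 76.7% and 74.2% of the summed D cyclin FPKM in WT and 56.3% and 68.2% in CfzR. CCND2 made up 22.9% and 23.7% in WT and 41.8% and 30.0% in CfzR. CCND1 made up 0.436% and 2.08% in WT and 1.99% and 1.84% in CfzR. The CCND3 share was lower in both CfzR libraries than in both WT libraries, by 13.2 percentage points in the means, and the CCND2 share was higher by 12.5 points. Without CfzR replicate 1 the differences were -7.22 points for CCND3 and 6.64 for CCND2. The SD over the 2 CfzR libraries was 8.44 points for CCND3 and 8.34 for CCND2, since CfzR replicate 1 stood farther from WT than CfzR replicate 2. Since 4 libraries can be divided in 3 ways, the smallest permutation p is 0.333, so no test is given. The summed level was 107 and 99.3 FPKM in the WT libraries and 87.6 and 81.9 in the CfzR libraries, also without overlap. CCND3 exceeded CCND2 3.35- and 3.12-fold in WT and 1.35- and 2.28-fold in CfzR.

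**Figure D3:**
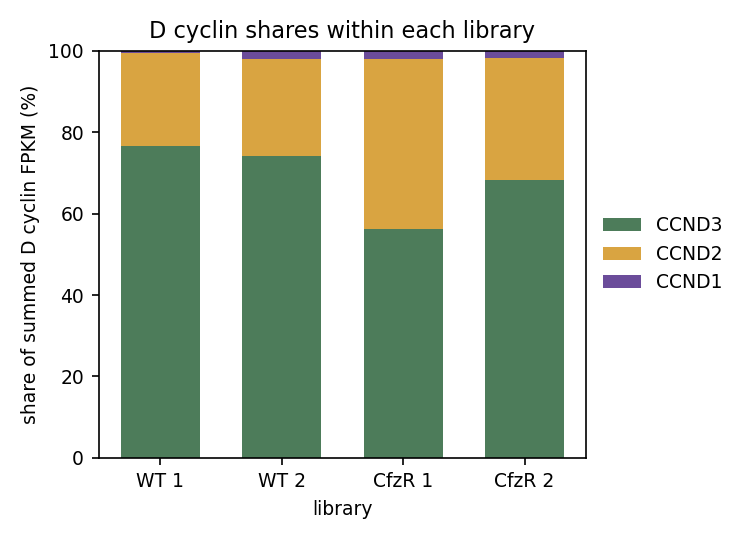
Share of summed D cyclin FPKM (percent) taken by CCND3, CCND2 and CCND1 in each of the 4 libraries. CCND3 takes 74.2% to 76.7% in WT and 56.3% to 68.2% in CfzR, and CCND1 stays at 2.08% or less.

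Partners, inhibitors and targets of the D cyclins were read in the same fit. Of 20 tested genes, 13 had positive and 7 negative log2 fold changes, 0 passed, and the median was 0.07. Groups without overlap numbered 7 higher and 2 lower, against 22.1% and 22.6% of all genes, and 4 had an unadjusted limma p under 0.05, against 11.1%. CDK6, the less abundant of the 2 D cyclin kinases here, was at 16.8 and 17.2 FPKM in the WT libraries and at 33.9 and 22.7 in the CfzR libraries. Both CfzR libraries lay above WT, CfzR replicate 1 the more so (log2 fold change 0.68, SE 0.24, limma adjusted p = 0.362; 0.40 without CfzR replicate 1). CDK4 exceeded CDK6 4.65- and 4.81-fold in WT and 2.04- and 3.73-fold in CfzR. RB1, the pocket protein that these kinases inactivate, was at 8.80 and 7.55 FPKM in the WT libraries and at 19.0 and 10.7 in the CfzR libraries (log2 fold change 0.74, limma adjusted p = 0.412; 0.35 without CfzR replicate 1). CDK2, the kinase that acts after the D cyclins, was at 34.7 and 37.3 FPKM in the WT libraries and at 59.5 and 42.6 in the CfzR libraries (log2 fold change 0.47, and 0.24 without CfzR replicate 1). CDKN1B, the inhibitor p27, overlapped, at 149 and 132 FPKM in the WT libraries and at 159 and 125 in the CfzR libraries. CDKN2C is not analysed here.

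Among the translocation genes, MAF was the highest. MAF is a leucine zipper factor of the MAF family that activates CCND2 and adhesion genes in myeloma. It was at 114 and 103 FPKM in the WT libraries and at 115 and 85.5 in the CfzR libraries. The CfzR libraries lay above and below both WT libraries. The log2 fold change was -0.13 (SE 0.23, 95% interval -0.68 to 0.42, limma adjusted p = 0.843), and -0.34 without CfzR replicate 1. MAF (ENSG00000178573) lies at chr16:79585843-79600714 on the minus strand. Against the small relatives MAFG, MAFF and MAFK, which lack a transactivation domain, MAF was 4.20 to 11.3 times as high in every library. MAFG stood at 16.9 and 17.1 FPKM in the WT libraries and at 18.7 and 20.4 in the CfzR libraries, and MAFF at 13.2 and 13.98 in the WT libraries and at 15.5 and 16.1 in the CfzR libraries. Of the 5 tested genes of the other immunoglobulin partners and relatives, 0 passed, 4 were positive and 1 negative, and the median was 0.19, against -0.024 without CfzR replicate 1.

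Genes known to be high in MAF myelomas were present in part. Of 12 listed, 8 had a row and 7 were tested, 2 above and 5 below 0, 0 past the threshold and a median of -0.15. ITGB7, the integrin chain by which MAF myeloma cells adhere, was at 1104 and 1230 FPKM in the WT libraries and at 1001 and 1095 in the CfzR libraries. All 4 libraries were thus above every MAF level, and the CfzR values lay just below the WT values (log2 fold change -0.15, limma adjusted p = 0.855; 0.19 under quantile normalization and -0.090 without CfzR replicate 1). ARID5A, an RNA-binding protein, was at 51.1 and 47.8 FPKM in the WT libraries and at 24.7 and 29.9 in the CfzR libraries. Both CfzR libraries lay well below WT (log2 fold change -0.84, SE 0.20, limma adjusted p = 0.190; -0.71 without CfzR replicate 1). CCR1, a chemokine receptor, was at 16.7 and 13.0 FPKM in the WT libraries and at 29.4 and 17.4 in the CfzR libraries (log2 fold change 0.59, and 0.23 without CfzR replicate 1).

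NSD2 encodes a histone methyltransferase that places dimethyl marks on lysine 36 of histone H3. It was at 54.6 and 50.1 FPKM in the WT libraries and at 80.6 and 58.9 in the CfzR libraries. Both CfzR libraries lay above WT, CfzR replicate 1 much more so. The log2 fold change was 0.39 (SE 0.23, 95% interval -0.14 to 0.93, limma adjusted p = 0.548), and 0.17 without CfzR replicate 1. The longest annotated transcript of NSD2 is 8568 bases long, more than that of any other member with a row, and the length and GC correction gave 0.30. Whether length had a part in the NSD2 value was not tested. NSD2 (ENSG00000109685) lies at chr4:1871424-1982207 on the plus strand. NSD2 was 3.77 times as high as its relative NSD3 in each WT library, and 4.09 and 4.02 times in CfzR.

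No neighbour of NSD2 on the chromosome and no other gene of its histone mark passed the threshold. LETM1 and TACC3 lie near the break region of the translocation that joins chromosomes 4 and 14. TACC3, a spindle protein, was at 93.6 and 108 FPKM in the WT libraries and at 73.3 and 108 in the CfzR libraries, and LETM1, a mitochondrial inner membrane protein, at 18.5 and 19.1 in the WT libraries and at 18.3 and 16.1 in the CfzR libraries. Without CfzR replicate 1 the log2 fold change of LETM1 went from -0.13 to -0.21. The list of lysine 36 methylation genes also holds EZH2, which methylates lysine 27. Of its 12 tested genes, 9 were positive and 3 negative (EZH2 at -0.18 among them), with a median of 0.10. That median was 0.19 in CfzR replicate 1 and -0.02 in CfzR replicate 2, so it was near 0 without the first. NSD3 was at 14.5 and 13.3 FPKM in the WT libraries and at 19.7 and 14.6 in the CfzR libraries, and the demethylase genes KDM4A and KDM4B differed by 0.32 and 0.23 on the log2 scale. Without CfzR replicate 1 the log2 differences were 0.11 for KDM4A, 0.16 for KDM4B and 0.074 for NSD3, against 0.27 for NSD3 with it.

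FGFR3 is the other gene placed beside an immunoglobulin enhancer by the same translocation. Of the FGF receptor signalling list, 22 of 25 genes were tested, with 12 positive and 10 negative, 0 past the threshold and a median of 0.05. FGFR1, a related receptor, was at 14.2 and 10.9 FPKM in the WT libraries and at 6.24 and 5.42 in the CfzR libraries. Both CfzR libraries were near the same level and below WT (log2 fold change -0.98, SE 0.22, 95% interval -1.49 to -0.46, limma adjusted p = 0.168; -1.07 without CfzR replicate 1). ETV5, a factor induced by FGF signalling through ERK, was at 13.0 and 12.3 FPKM in the WT libraries and at 20.4 and 19.3 in the CfzR libraries, higher in both libraries (log2 fold change 0.61, limma adjusted p = 0.302). PTPN11, the phosphatase SHP2, was at 13.5 and 12.6 FPKM in the WT libraries and at 21.8 and 14.4 in the CfzR libraries (log2 fold change 0.42, and 0.13 without CfzR replicate 1).

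CKS1B is a small cofactor that lets the ubiquitin ligase of SKP2 recognise CDKN1B, and its gene lies in the stretch of chromosome 1 that is often gained in myeloma. It was at 264 and 280 FPKM in the WT libraries and at 237 and 297 in the CfzR libraries. The CfzR values enclosed the WT values. The log2 fold change was -0.03 (SE 0.25, 95% interval -0.62 to 0.55, limma adjusted p = 0.962). CKS1B (ENSG00000173207) lies at chr1:154974653-154979249 on the plus strand, and how reads shared with its pseudogene copies were counted is not given in the sources used here. Its relative CKS2 was lower, with CKS1B over CKS2 at 2.09 and 3.57 in the WT libraries and at 2.37 and 2.50 in the CfzR libraries.

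In the list of the SKP2 ligase, CKS proteins and their kinases, 11 genes were tested, with 8 positive and 3 negative, 0 past the threshold and a median of 0.13. SKP2 itself overlapped, at 20.5 and 22.4 FPKM in the WT libraries and at 22.9 and 20.1 in the CfzR libraries. CUL1, the scaffold of the ligase, was at 47.1 and 48.9 FPKM in the WT libraries and at 34.8 and 28.9 in the CfzR libraries, lower in both libraries (log2 fold change -0.58, SE 0.20, limma adjusted p = 0.350). CCNA2, the S phase cyclin, was at 55.7 and 50.7 FPKM in the WT libraries and at 79.3 and 61.8 in the CfzR libraries. Of 21 tested genes of the 1q21-q22 gain, 14 were positive and 7 negative, with a median of 0.12 and 0 past the threshold. Among those named were MUC1, a mucin, at 15.7 and 15.8 FPKM in the WT libraries and at 6.22 and 13.0 in the CfzR libraries, and the ubiquitin enzyme UBE2Q1, at 31.1 and 23.2 in the WT libraries and at 34.5 and 33.4 in the CfzR libraries. TPM3, a tropomyosin, was at 141 and 131 FPKM in the WT libraries and at 186 and 149 in the CfzR libraries. Without CfzR replicate 1 the log2 fold change of MUC1 went from -0.74 to -0.26, that of TPM3 from 0.30 to 0.14 and that of CCNA2 from 0.39 to 0.21, while UBE2Q1 was at 0.32 with it and 0.30 without it.

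The order of the members by mean level over the 4 libraries was MYC (292 FPKM), CKS1B (269.7), MAF (104), CCND3 (65.2), NSD2 (61.0), MAX (47.0), CCND2 (27.3) and CCND1 (1.45). The ranges over the 4 libraries overlapped between MYC and CKS1B, which did not differ beyond their spread, and between CCND3 and NSD2. The other neighbours in that order had ranges that did not overlap. Within each group CCND3 and NSD2 did not overlap, and CCND3 lay above NSD2 in both WT libraries and below it in both CfzR libraries. In CfzR replicate 2 they were close, at 55.9 and 58.9 FPKM. The wide gap, 49.3 against 80.6 FPKM, was in CfzR replicate 1, the library whose differences followed transcript length.

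**Figure D4:**
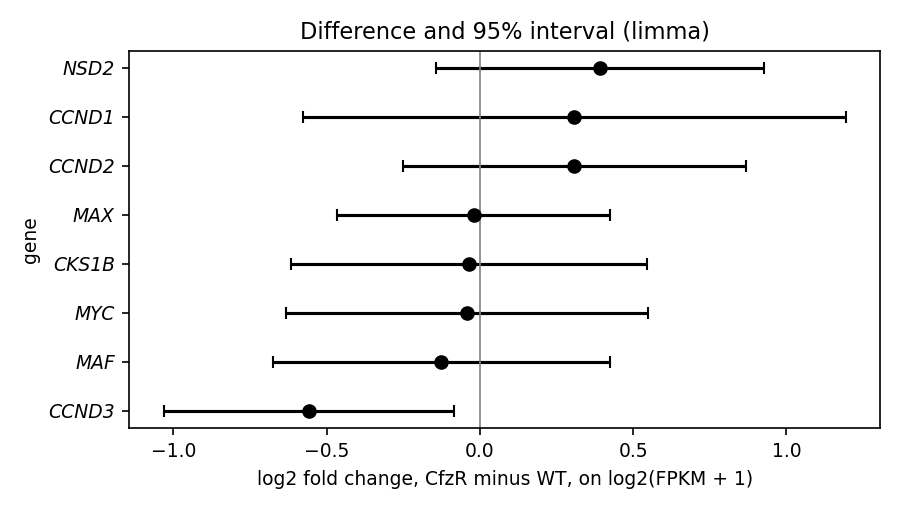
Log2 fold change (CfzR minus WT, on log2(FPKM + 1)) of each member with its 95% interval from limma. The CCND3 interval alone lies on 1 side of 0, from -1.03 to -0.08, and after adjustment over all genes no member passed the threshold.

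None of the genes nearest to CCND3 on the chromosome passed the threshold, and their values lay below 0. All 13 tested genes within 500 kb of CCND3 lay below 0, from -1.39 to -0.08 with a median of -0.51, and 11 of them were lower without overlap, against 22.6% of all genes. TFEB and TRERF1 overlapped. Negative values made up 52.9% of all genes tested. An unadjusted limma p under 0.05 was found for 4 of the 13, against 11.1% of all genes. The median was -0.43 after the length and GC correction, -0.39 without CfzR replicate 1 and -0.49 without CfzR replicate 2. BYSL, a ribosome assembly factor whose gene (chr6:41921188-41933046, plus strand) ends just before CCND3, was at 24.2 and 27.4 FPKM in the WT libraries and at 14.6 and 14.97 in the CfzR libraries. Its CfzR values were close to each other and below WT (log2 fold change -0.76, SE 0.19, limma adjusted p = 0.213). TOMM6, a subunit of the mitochondrial import pore, was at 299 and 266 FPKM in the WT libraries and at 153 and 215 in the CfzR libraries (log2 fold change -0.63, and -0.39 without CfzR replicate 1), and MED20, a Mediator subunit, at 9.18 and 9.75 in the WT libraries and at 6.73 and 6.97 in the CfzR libraries. FOXP4 and its antisense partner FOXP4-AS1 had the lowest values, -0.83 and -1.39. FOXP4-AS1 was at 61.0 and 64.4 FPKM in the WT libraries and at 20.8 and 26.1 in the CfzR libraries (limma adjusted p = 0.0596). The 2 genes lie on opposite strands and overlap at chr6:41546426-41548621, and the use of strand in counting is not given, so reads from that overlap cannot be assigned to either. These 2 genes were named after their values were seen.

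Medians in the windows around the other members were nearer 0. Within 500 kb the median was 0.04 beside MYC (2 genes), -0.0023 beside MAX (6), 0.0046 beside CCND1 (2), -0.06 beside CCND2 (12), -0.10 beside NSD2 (11), -0.26 beside MAF (3) and -0.05 beside CKS1B (25). Within 5 Mb, 70 of 75 genes beside CCND3 were negative (93.3%), with a median of -0.48 in CfzR replicate 1 and -0.32 in CfzR replicate 2. Beside CCND1, 123 of 164 were negative (75%), but there the median was -0.39 in CfzR replicate 1 and -0.07 in CfzR replicate 2. The share was 40% of 25 genes beside MYC, 47.1% of 51 beside MAX, 59.3% of 91 beside CCND2, 51.8% of 56 beside NSD2, 52.4% of 42 beside MAF and 54.1% of 148 beside CKS1B. Of these windows, that of CKS1B held 2 genes past the threshold and the others 0. Among the 25 listed genes tested that flank the members' loci, 17 were negative and 8 positive, 0 passed and the median was -0.14, a list in which CCND3 neighbours such as BYSL, MED20 and TOMM6 gave the lowest named values.

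Along much of the short arm of chromosome 6 most values lay below 0, and no gene of the stretch described here passed the threshold. Between 5 and 45 Mb, leaving out CCND3, 195 of 222 tested genes were negative (87.8%), 132 were lower without overlap (22.6% of all genes) and 58 had an unadjusted limma p under 0.05 (11.1% of all genes). The median was -0.38, and it was similar in the CfzR libraries, at -0.39 in replicate 1 and -0.36 in replicate 2. It was -0.36 with TMM scaling, -0.33 with quantile normalization and -0.32 after the length and GC correction. Outside that stretch the sign of the median was the opposite. Below 5 Mb, 25.0% of 24 genes were negative, with a median of 0.11, and above 45 Mb 34.2% of 307 genes were negative, also with a median of 0.11. Of these 307, 111 were higher and 33 lower without overlap (22.1% and 22.6% of all genes). An unadjusted limma p under 0.05 was found for 43 of them, and 4 passed the threshold (0.350% of all genes). The bounds of the stretch were chosen after the values were seen, so these counts are a description with no test, and genes side by side are not independent. The median of the 51 genes from 25 to 30 Mb was nearer 0, at -0.12, than in the other 5 Mb bins of the stretch. Only 6 of the 222 were higher without overlap, and 1 of them was PIM1 (chr6:37170203-37175426), with the levels given above.

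**Figure D5:**
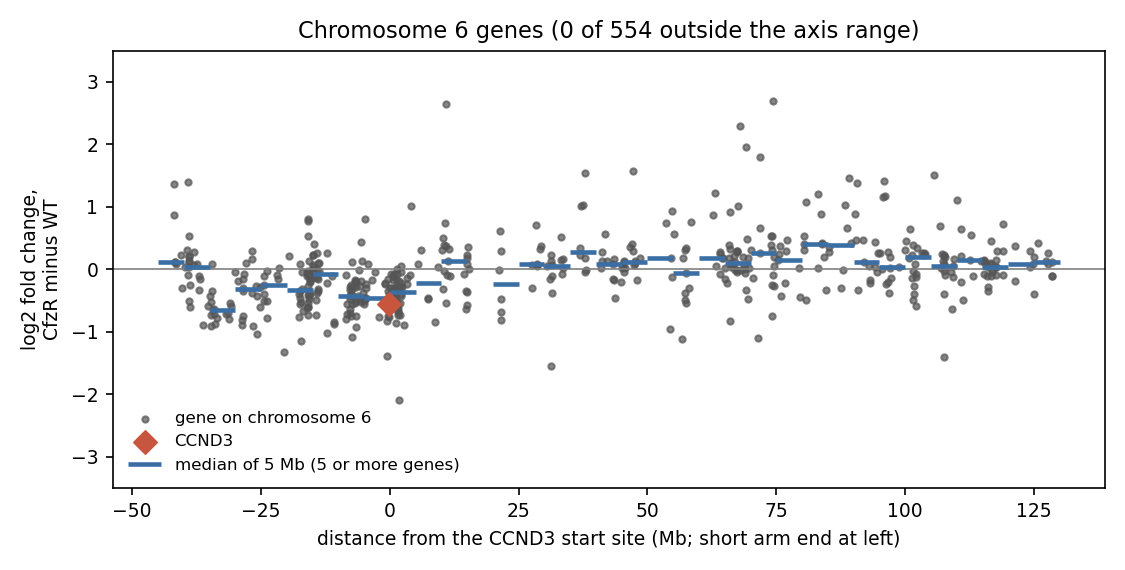
Log2 fold change (CfzR minus WT) of each tested gene on chromosome 6 against its distance in Mb from the CCND3 start site, with the short arm end at left, CCND3 as a diamond and the median of each 5 Mb bin of 5 or more genes as a line. Bins are counted from the CCND3 start site, so their bounds differ from those of the bins in the text. Those lying within the stretch from 5 to 45 Mb of the chromosome have medians below 0, and most bins farther to the right lie above 0.

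The genes most like CCND3 and MYC in level and pattern were read by the Euclidean distance of log2(FPKM + 1) over the 4 libraries. Nearest to CCND3 was DEF6, at a distance of 0.0806, with 77.7 and 74.0 FPKM in the WT libraries and 49.1 and 55.2 in the CfzR libraries. RPUSD3 followed at 0.139 and LEMD2 at 0.189. DEF6 (chr6:35297852-35321771) and LEMD2 (chr6:33771202-33789136) lie in the same stretch of chromosome 6 as CCND3, and RPUSD3 lies on chromosome 3. Nearest to MYC were H3-3A (0.193), ARF1 (0.200) and MGST1 (0.269), each between 254 and 329 FPKM in all libraries. H3-3A has near-identical copies, and how reads shared with them were counted is not given in the sources used here.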

How the data were processed

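RNA was measured in 4 ARP-1 libraries, 2 WT and 2 CfzR. The authors deposited FPKM values for 15201 Ensembl gene IDs, a unit inferred from the named tools and the decimal values. Per the submitters' processing notes, STAR and Cufflinks were used. Their versions, the build, the annotation, the scaling of libraries and the use of strand were not given in the sources used here. Columns with the drug's abbreviation were taken as CfzR, and the control columns as WT, the only other group. Without counts, depth is unknown, and counting error cannot be stated.

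Symbols were matched by ID for 15034 rows, and positions of GENCODE release 29 for 14496. On log2(FPKM + 1), a scale that understates changes of low genes, 13411 genes averaging 1 FPKM or more entered 1 fit with limma 3.58.1 (R 4.3.3). It used lmFit and eBayes with its trend option, two-sided, and Benjamini-Hochberg adjustment over all of them with a threshold of 0.05. The labels do not say that replicates were separate cultures. The p-values therefore set each difference only against variation among these libraries, which eBayes shares in part across genes, and that variation may be technical. Members, the 11 gene lists and the markers were chosen with earlier results of these data known.

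The rule for naming genes took every member, CDK4, CDK6, SKP2, CDKN1B, CDKN2C, IRF4, ITGB7, MXD4, MNT, TACC3 and LETM1, and an item that is not reported here. From each list it took genes past the threshold or, failing those, up to 3 with the largest log2 fold change among those averaging 5 FPKM or more with groups that did not overlap, and for likeness the 3 nearest genes. Simulated data of 13411 genes with 200 changed gave back 7.81% at a log2 change of 1, 86.3% at 2 and 100% at 4, with 7.09% false calls. The simulated noise was normal and independent between genes, with no trend with transcript length or GC share. These rates may therefore not hold for the measured libraries, where CfzR replicate 1 had such trends.

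Alternatives tried were other pseudocounts (0.1 and 5), other filters (none, or 5 FPKM), TMM scaling (trimmed means of M-values), quantile normalization, eBayes without its trend option, the replicate number as a block, and leaving out each library. Removing trends with transcript length and GC share by splines (4 degrees of freedom, 12896 genes) was added after seeing the data.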

Additional observations from a re-analysis of the deposited data

How the results depend on the processing

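No member passed the threshold under any alternative run. The D cyclin shares are read within a library, so TMM scaling, the filters and the options of the fit could not change them. Without CfzR replicate 1 the share differences of CCND3 and CCND2 were smaller, with the values given above. The replicate numbers of the labels are shared by WT and CfzR, but nothing says that they mark a shared culture, and with 2 pairs the deviations of same-numbered libraries correlated at 0.25. With the replicate block the count over all genes was 1242 (487 higher, 755 lower) against 47 in the main fit. With the block, limma gave each gene the variance of the trend at its level, with no spread of its own. The block count therefore cannot be set beside the main one. Where the block fit called 1242 of 13411 genes, it called 3 of 28 MYC targets, 1 of 15 genes of MYC control and 4 of 20 D cyclin partners. It also called 1 of 25 genes beside the loci, 1 of 7 of the MAF group, 1 of 22 of the FGF list and 1 of 21 of 1q21-q22. These counts are not read as a result about the lists. The count was 27 with a filter at 5 FPKM. It was 16 without CfzR replicate 1, 17 without CfzR replicate 2, 148 without WT replicate 2 and 260 without WT replicate 1. Where an arm held 1 library, it was assumed to vary like the other group.

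Some log2 fold changes turned sign, most of them near 0. Under quantile normalization they were 0.21 for MYC, 0.10 for MAX, 0.060 for MAF, 0.25 for CKS1B, 0.19 for ITGB7, 0.085 for CDK4 and 0.018 for TACC3. MAX was 0.0026 with TMM scaling. After the length and GC correction MYC was 0.049, MAX 0.0056, CKS1B 0.028, CDK4 0.034 and SKP2 -0.11. Leaving out 1 library gave MYC -0.19 to 0.11, MAX -0.066 to 0.026, CCND1 -0.22 to 0.84, MAF -0.34 to 0.086, CKS1B -0.20 to 0.13, CDK4 -0.22 to 0.077, SKP2 -0.086 to 0.090, CDKN1B -0.17 to 0.18, IRF4 -0.12 to 0.34 and TACC3 -0.45 to 0.10.

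List medians moved as follows. Under quantile normalization they were -0.047 for the MYC network, -0.094 for MYC targets, 0.25 for MYC control, 0.22 for D cyclin partners, -0.068 for genes beside the loci, 0.31 for the SKP2 list and 0.28 for 1q21-q22. The MYC network was -0.087 with a filter at 5 FPKM, 0.0093 with TMM scaling and 0.014 after the length and GC correction, which gave 0.25 for other immunoglobulin partners. Leaving out 1 library gave medians of -0.093 to 0.0053 for the MYC network, -0.050 to 0.21 for MYC control, 0.13 to 0.19 for D cyclin partners, -0.024 to 0.18 for other immunoglobulin partners, -0.26 to -0.092 for genes beside the loci, -0.23 to -0.0034 for the MAF group, -0.0030 to 0.20 for FGF signalling, -0.015 to 0.19 for the lysine 36 list, 0.12 to 0.33 for the SKP2 list and 0.064 to 0.18 for 1q21-q22. The cause of these moves was not tested.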
